A study of Homo sapiens with 4 samples.

Results

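The genes described here are 10 components of the upstream Hippo pathway in human lung adenocarcinoma cells: the kinases LATS1, LATS2, STK3 and STK4, the scaffolds and adaptors SAV1, NF2, WWC1 and FRMD6, and the angiomotins AMOT and AMOTL1. They were chosen by name, and each was matched to the probe set that carries its symbol alone, which gave 10 genes of 18377 measured. A549 and H441, both established lines, received either a control siRNA (siNTC) or an siRNA against TAZ (siTAZ), and RNA was taken 48 h later. Each of the 4 combinations is 1 bulk RNA sample on 1 Affymetrix whole-transcript array, with no untransfected sample among them. No source used here gives the siRNA sequences. The question is whether silencing TAZ, the co-activator at the end of the pathway, alters the RNA of the genes that act before it, and how far the lines differ in these genes to begin with.

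In the Hippo pathway the MST kinases, encoded by STK3 and STK4, bind the adaptor SAV1 and phosphorylate the LATS kinases, and LATS in turn phosphorylates TAZ and its paralog YAP, which are then held in the cytoplasm or degraded. NF2 (merlin), WWC1 (KIBRA) and FRMD6 (willin) bring these kinases to the membrane, and angiomotins bind YAP and TAZ at junctions and in the cytoplasm. Transcription of LATS2 and AMOTL2 by YAP, TAZ and their TEAD partners is known as a negative feedback of the pathway.

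The core binding letters of TEAD factors are GGAATG, read on either strand, and each match at the start of a member gene is shown. Windows of 300 bases around gene starts (250 before and 50 after) came from RefSeq, build GRCh38.p14, and covered 9 of the 10 genes. Of their 11 windows, only that of LATS2 contained the letters, which were found in 14.0% of all 35116 windows. The match begins 10 bases into the transcribed part, at chr13:21061560-21061589 on the minus strand, with the motif in capitals.
LATS2: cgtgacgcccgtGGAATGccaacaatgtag
A match of letters is not a bound site, and binding was not measured here. Of the 11 member windows, 9 had 65% or more G and C, and the exceptions were FRMD6 (44.0%) and 1 of the LATS1 starts (30.3%). The median over all windows was 58.7%, but the share of them at 65% or more was not counted.

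The arrays behind these values had median log2 signals of 6.05 and 6.06 in A549 and 6.17 and 6.25 in H441. WWTR1, the gene of TAZ, was 5.27-fold lower with siTAZ in A549 and 4.40-fold lower in H441. Epithelial markers were above the table median in both lines (5 of 5 each). Of 6 measured lung lineage markers, 5 were above it in H441 (NKX2-1, SFTPB, NAPSA, SLC34A2 and FOXA2) and 2 in A549 (SFTPC and FOXA2). Endothelial markers were below it (0 of 3 in each line). Immune markers reached it for 1 of 3 in A549 (CD14) and 0 of 3 in H441, and fibroblast markers for 1 of 5 and 3 of 5. Of all 18377 measured genes, 11405 reached the table median in A549 and 11911 in H441, so reaching it is common. Mean log2 signals of the epithelial list were 10.24 and 10.11 in A549 (siNTC and siTAZ) and 12.91 and 12.77 in H441, of the lung lineage list 6.04 and 6.08 against 8.19 and 8.57, of the fibroblast list 5.56 and 5.65 against 6.46 and 6.49, and of the immune list 5.61 and 5.89 against 5.21 and 5.21. The part of these markers in the differences between the lines was not tested. All values are log2 signals, a difference is siTAZ minus siNTC unless stated, and within a line it rests on 1 array against 1 array. Levels of different genes are not compared, because each probe set has its own response.

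After TAZ silencing, none of the tested Hippo genes passed the test over both lines (0 of 9; limma adjusted p under 0.05, two-sided, adjusted over all 12740 genes tested), where 2.47% of all genes did. An unadjusted limma p under 0.05 was reached by 2 members, LATS1 and WWC1, against 13.2% of all genes. In A549, 3 of 9 members above the table median (6.13) differed at least 1.2-fold, namely LATS1, STK3 and WWC1, against 19.7% of all genes. In H441 it was 1 of 8, LATS1, against 20.4%. Differences of 1.5-fold or more were found for 0 members in either line, against 2.83% of all genes in A549 and 1.45% in H441. The members' median difference was 0.03 in A549 and -0.09 in H441, where the medians of all genes in the same filter were 0.0051 and 0.0048. The H441 median of the members moved with the setting, to -0.17 after median centring, -0.05 after quantile normalization or cyclic loess, -0.06 under the stricter filter and -0.0073 without the filter. AMOT is outside these counts, and AMOTL1 outside those for H441, because their signals there were below the table median.

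**Figure D1:**
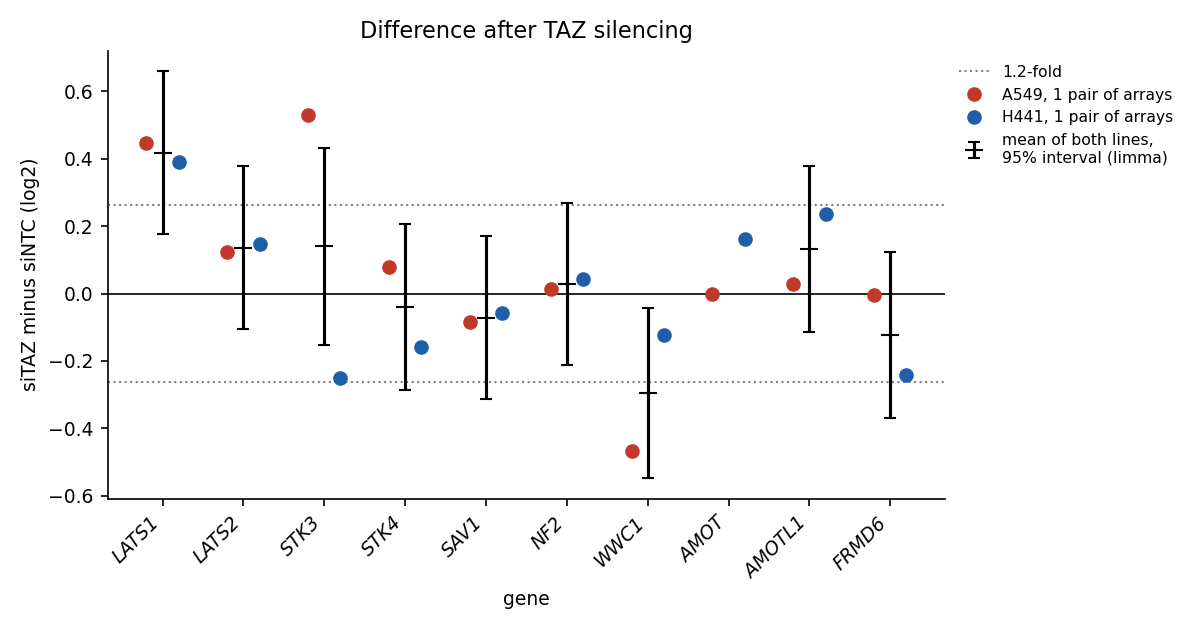
Difference in log2 signal between siTAZ and siNTC for each of the 10 genes: red points are A549 and blue points H441 (1 pair of arrays each), and black bars are the mean of both lines with its 95% interval from limma. LATS1 is higher in both lines (0.45 and 0.39), STK3 lies on opposite sides of 0, and dotted lines mark 1.2-fold.

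LATS1, one of the kinases that phosphorylate TAZ directly, had the largest difference over both lines in this set. In A549 it measured 7.26 with siNTC and 7.71 with siTAZ, and in H441 7.78 and 8.17. Both siTAZ arrays were higher than the control of their own line, by 1.36-fold and 1.31-fold. The mean difference was 0.42 ± 0.12 (limma SE, 2 lines; 95% interval 0.18 to 0.66), with a limma adjusted p of 0.057, rank 347 among 12740 genes by p. LATS1 therefore missed the threshold that 315 genes passed, and it passed under 2 of 9 alternative settings, a stricter filter on dim genes (adjusted p = 0.034) and a variance prior that follows intensity (0.017). These 2 settings called 4.17% and 4.66% of all genes they tested, against 2.47% in the main fit. Under the other 7, limma adjusted p ranged from 0.059 to 1.0, the last from the fit without the cell line.

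LATS2, the other kinase of this pair and the feedback target named above, had smaller differences of the same sign. It measured 7.54 with siNTC and 7.66 with siTAZ in A549, and 8.01 and 8.16 in H441, differences of 0.12 and 0.15. The mean of 0.14 ± 0.12 (limma SE, 2 lines) had a 95% interval from -0.11 to 0.38 and a limma adjusted p of 0.70. That interval allows both a fall and a rise of LATS2, and it does not mark what these arrays could detect. The difference of LATS1 exceeded that of LATS2 by 0.32 in A549 and 0.24 in H441, which was not tested.

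STK3, which encodes the kinase MST2, had the largest single-line difference of the set. In A549 it measured 7.37 with siNTC and 7.90 with siTAZ, 1.44-fold higher, and in H441 8.53 and 8.28, 1.19-fold lower. The lines thus lay on opposite sides, and the mean of 0.14 ± 0.14 (limma SE, 2 lines; 95% interval -0.15 to 0.43) did not pass (limma adjusted p = 0.76). No test of this difference between the lines exists, since each line has a single array per siRNA.

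STK4, which encodes MST1, showed the same order of signs with smaller values. In A549 it measured 9.22 with siNTC and 9.30 with siTAZ, and in H441 9.86 and 9.70. The mean was -0.04 ± 0.12 (limma SE, 2 lines; 95% interval -0.29 to 0.21, limma adjusted p = 0.94).

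Among the scaffolds and adaptors, WWC1 had the largest difference. KIBRA, its product, joins merlin to the kinases. WWC1 measured 8.74 with siNTC and 8.27 with siTAZ in A549, 1.38-fold lower, and 8.80 and 8.68 in H441, 1.09-fold lower. The mean was -0.30 ± 0.12 (limma SE, 2 lines; 95% interval -0.55 to -0.04), with an unadjusted limma p of 0.023 and an adjusted p of 0.26. It passed under none of the 9 alternatives, which gave adjusted p of 0.14 to 1.0.

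SAV1, the adaptor of the MST kinases, and NF2, which encodes merlin, were nearly level between siRNAs in each line. SAV1 measured 8.02 and 7.94 in A549 (siNTC and siTAZ) and 9.68 and 9.62 in H441. Its mean difference was -0.07 ± 0.12 (limma SE, 2 lines; 95% interval -0.31 to 0.17, limma adjusted p = 0.87). NF2 measured 8.70 and 8.72 in A549 and 9.34 and 9.38 in H441. Its mean difference of 0.03 ± 0.12 (limma SE, 2 lines; 95% interval -0.21 to 0.27, limma adjusted p = 0.95) became -0.02 after median centring of the arrays. These intervals allow changes of either sign for both genes.

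FRMD6, a FERM-domain protein gene, was level in A549 and lower with siTAZ in H441. It measured 6.96 on both A549 arrays, and 7.80 with siNTC and 7.56 with siTAZ in H441, 1.18-fold lower. The mean was -0.12 ± 0.12 (limma SE, 2 lines; 95% interval -0.37 to 0.12, limma adjusted p = 0.74). The A549 difference of -0.0029 turned to 0.0019 after quantile normalization and 0.0091 after cyclic loess.

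The angiomotins were measurable in part. AMOTL1 measured 7.39 with siNTC and 7.42 with siTAZ in A549, and 5.03 and 5.27 in H441, where both arrays were below the table median. Its mean difference was 0.13 ± 0.12 (limma SE, 2 lines; 95% interval -0.11 to 0.38, limma adjusted p = 0.72). AMOT was below the table median on all 4 arrays, with 4.94 on both A549 arrays and 4.98 and 5.14 in H441, so it was not tested. Its A549 values were identical in every deposited digit, as were those of 757 of the 28869 probe sets between the A549 arrays and 555 between the H441 arrays. At such low signals the arrays give no usable measure of a change in AMOT RNA.

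**Figure D2:**
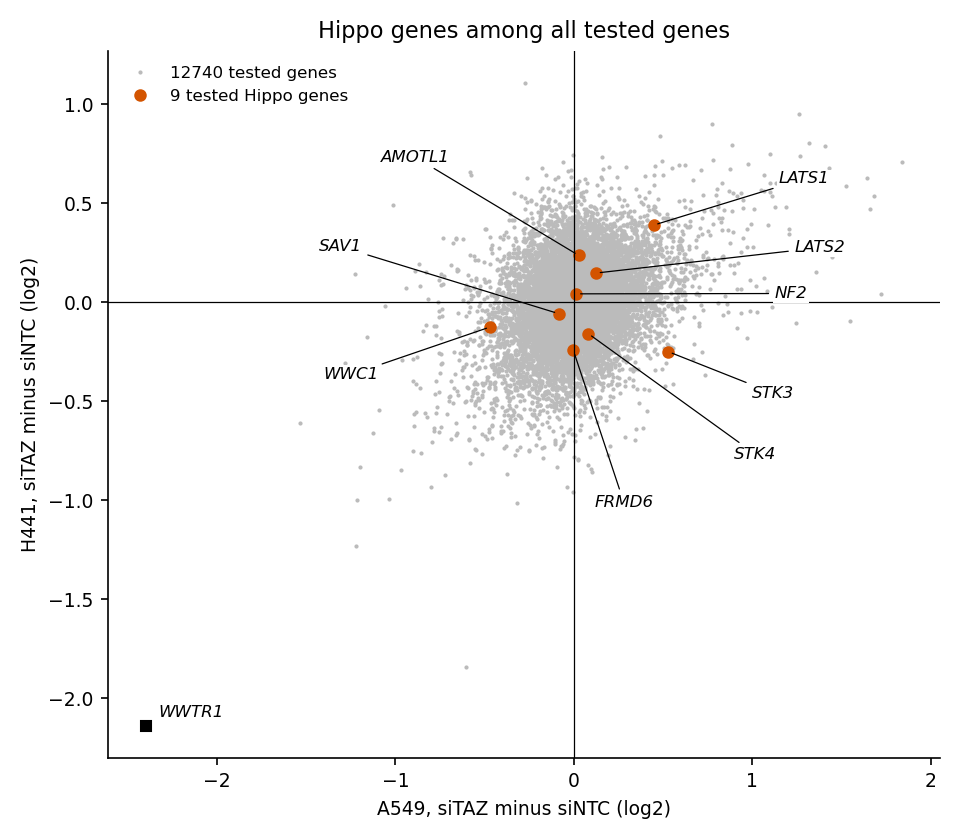
Difference between siTAZ and siNTC in A549 (horizontal) and in H441 (vertical), both in log2, for the 12740 tested genes (grey), the 9 tested Hippo genes (orange) and WWTR1 (black square). The Hippo genes lie within the cloud of all genes, between -0.47 and 0.53 in A549 and between -0.25 and 0.39 in H441, while WWTR1 lies apart at -2.40 and -2.14.

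The difference between the cell lines for SAV1 was larger than any siTAZ difference in this set. In the comparison of A549 with H441 over both siRNAs, 8 of the 9 tested members passed (limma adjusted p under 0.05), against 71.9% of all genes, so that a passing gene is the rule here. Lower in A549 were 7 members, against 52.8% of all genes, and higher was 1, AMOTL1, against 19.0%. AMOTL1 passed the filter on dim genes only through A549, so its place in these counts is no support. The H441 arrays carried higher signals in general: the median A549 minus H441 difference of all tested genes was -0.31, against -0.52 for the members, and it was -0.01 after quantile normalization and 0.0031 after cyclic loess. Each line is 1 culture per siRNA, so these differences belong to these cultures. In bulk RNA, fewer cells that express a gene and less RNA per cell cannot be told apart.

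**Figure D3:**
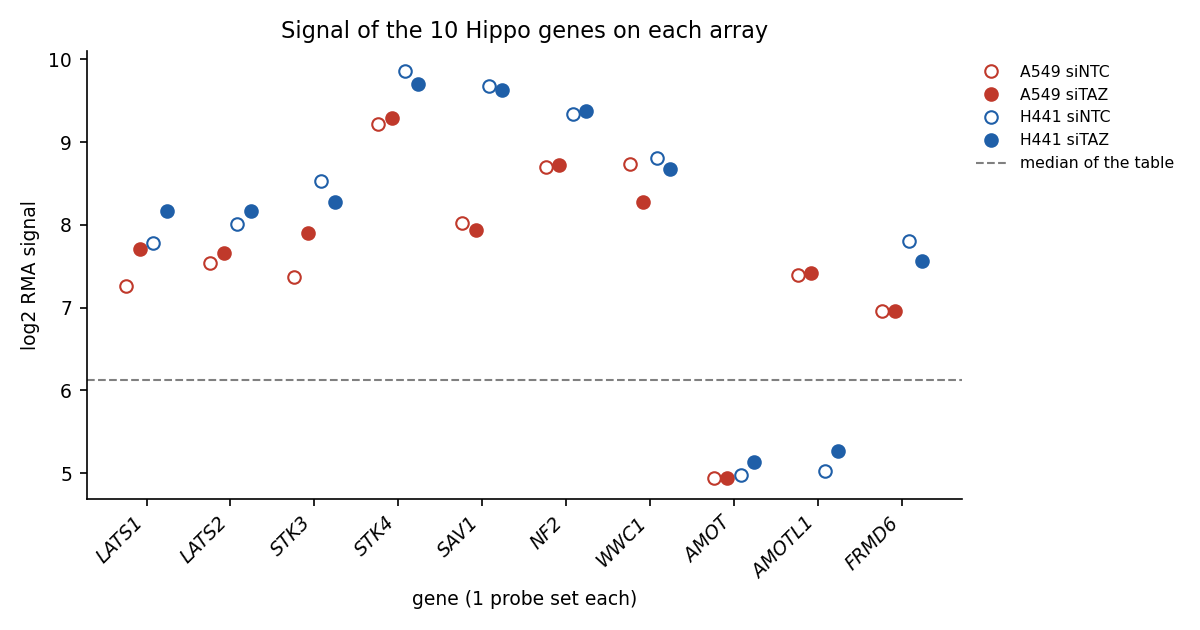
Log2 signal of each Hippo gene on the 4 arrays, A549 in red and H441 in blue, with open points for siNTC and filled points for siTAZ; the dashed line is the table median of 6.13. SAV1 is higher on both H441 arrays (9.68 and 9.62) than on both A549 arrays (8.02 and 7.94), AMOTL1 is higher on the A549 arrays, and AMOT is below the median on all 4.

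SAV1 was 3.19-fold lower in A549 (A549 minus H441 -1.67 ± 0.12, limma SE, limma adjusted p = 5.7e-12). The values given above, 8.02 and 7.94 against 9.68 and 9.62, do not overlap between lines, and the difference was almost the same with siNTC (-1.66) and with siTAZ (-1.69). It was called under all 9 alternatives, with sizes from -1.67 to -1.28. Relative to the median of all genes it was -1.37.

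AMOTL1 was the one member with higher signals in A549, 7.39 and 7.42, than in H441, 5.03 and 5.27. The H441 arrays were below the table median, where RMA compresses differences, so the gap of 2.36 between the siNTC arrays and 2.15 between the siTAZ arrays is a description and likely understates the difference in RNA. Its limma call between the lines is no support, because the gene entered the fit only through the line where it is high. Its close relative AMOT was below the table median in both lines, so of this pair only AMOTL1 had a signal above it, and only in A549.

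FRMD6 was 1.65-fold lower in A549 (-0.72 ± 0.12, limma SE, limma adjusted p = 9.2e-06). The H441 arrays at 7.80 and 7.56 were both above the A549 arrays at 6.96. The call held under all 8 alternatives that kept it, with adjusted p up to 0.011 and sizes from -0.72 to -0.42.

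STK3 was 1.70-fold lower in A549 (-0.76 ± 0.14, limma SE, limma adjusted p = 4.3e-05). The gap was -1.15 between the siNTC arrays and -0.37 between the siTAZ arrays, which restates its opposite signs after siTAZ. After cyclic loess it was -0.41 and no longer passed (adjusted p = 0.064).

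For the other 4 members called lower in A549, the calls depended on the scaling. They held after median centring (limma adjusted p from 0.00045 to 0.018, sizes from -0.50 to -0.34) but not after the 2 other scalings. LATS1 and LATS2 were both lower by 1.40-fold (-0.49 ± 0.12 each, limma SE; limma adjusted p = 0.00071 and 0.0007), STK4 by 1.44-fold (-0.52, adjusted p = 0.00042) and NF2 by 1.57-fold (-0.65, adjusted p = 2.9e-05). In each of these genes both A549 arrays were below both H441 arrays. The share of all genes separated this way was not counted, so the separation, also that of SAV1 and FRMD6, is no support. Of all tested genes, 70.1% had a higher mean in H441, and 71.9% passed between lines in either direction. After quantile normalization the sizes were -0.17 for LATS1, -0.16 for LATS2, -0.13 for STK4 and -0.25 for NF2, and none of the 4 passed (limma adjusted p = 0.20, 0.22, 0.33 and 0.061). None passed after cyclic loess either, with adjusted p between 0.060 and 0.34. LATS1 also missed the threshold without the siRNA term (adjusted p = 0.050). Relative to the median of all genes they lay at -0.18 (LATS1 and LATS2), -0.22 (STK4) and -0.34 (NF2).

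WWC1 was the tested member that did not pass between lines. Its A549 values of 8.74 and 8.27 overlap the H441 values of 8.80 and 8.68. The difference was -0.23 ± 0.12 (limma SE; 95% interval -0.49 to 0.02, limma adjusted p = 0.088), and its sign turned after quantile normalization (0.16) and cyclic loess (0.15). AMOT, which was not tested, had differences of -0.04 between the siNTC arrays and -0.20 between the siTAZ arrays.

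**Figure D4:**
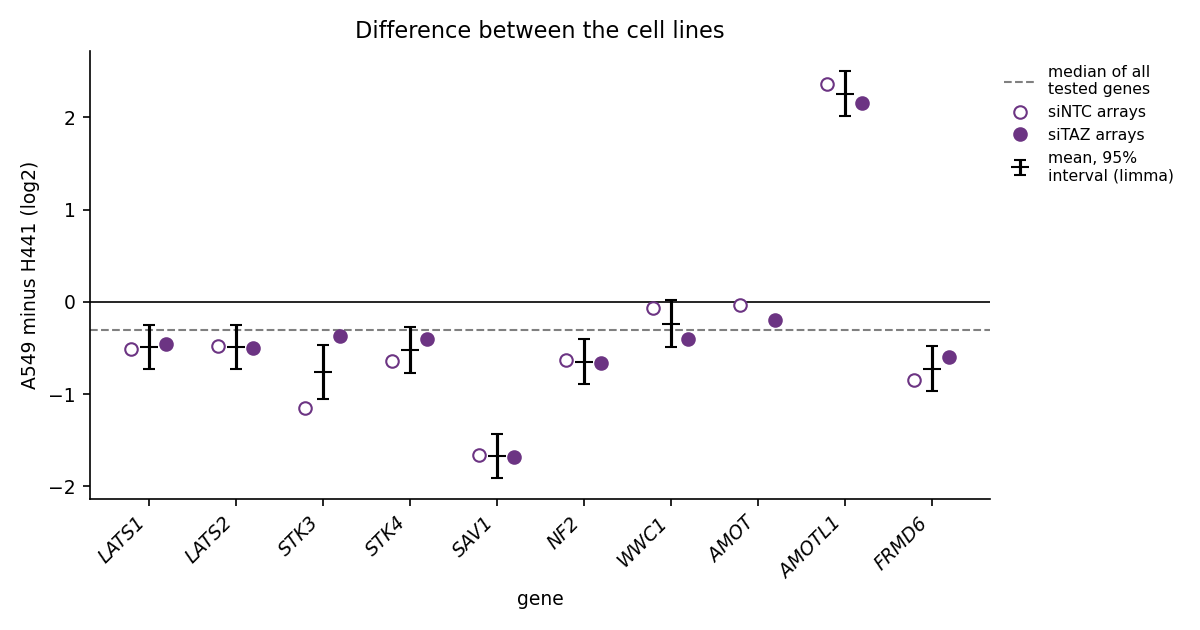
A549 minus H441 difference in log2 signal for each gene, with open points for the siNTC arrays, filled points for the siTAZ arrays and black bars for the mean with its 95% interval from limma; the dashed line is the median of all tested genes (-0.31). SAV1 (-1.67) and AMOTL1 (2.26, with H441 signals below the table median) lie farthest from that line, and WWC1 lies close to it. The interval of AMOTL1 is no support, because the gene passed the filter on dim genes only through A549.

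The other genes of the pathway were read from lists of 65 genes by role, of which 59 had a probe set and 54 were tested. After TAZ silencing 1 rose and 1 fell over both lines, and 8 had an unadjusted limma p under 0.05, to be read against the 2.47% and 13.2% of all genes given above. The calls were both RASSF genes, which encode adaptors with a RAS-association domain, some of which bind the MST kinases. RASSF5 rose, from 6.43 to 7.15 in A549 and from 7.62 to 7.96 in H441 (0.53 ± 0.12, limma SE, 2 lines, limma adjusted p = 0.018). RASSF3 fell, from 6.94 to 6.59 in A549 and from 8.74 to 8.15 in H441 (-0.47 ± 0.12, adjusted p = 0.032). Both calls were lost after quantile normalization (adjusted p = 0.066 for RASSF5 and 0.083 for RASSF3), after cyclic loess (0.15 for both), without the filter on dim genes (0.097 and 0.11) and without the cell line in the fit (1.0 for both). In A549 RASSF2 measured 7.53 with siNTC and 8.15 with siTAZ, a difference of 0.62. In H441 it measured 4.83 and 4.87, below the table median, where a change could hardly show, and the mean over both lines did not pass (limma adjusted p = 0.24).

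Kinases and MOB adaptors that act beside STK3 and STK4 had 0 calls among 9 tested (1 at an unadjusted limma p under 0.05). MAP4K5, of a kinase family that can phosphorylate LATS, gave -0.19 in A549 and -0.43 in H441. MAP4K4 had 0.18 and 0.19, and MOB1A, a LATS co-activator, 0.11 and -0.38. The STRIPAK complex, a phosphatase assembly that removes phosphate from the MST kinases, had 0 calls among 13 tested (2 at an unadjusted limma p under 0.05). Its members SIKE1, SLMAP and PDCD10 had -0.30 and -0.40, -0.09 and -0.48, and -0.17 and -0.20 in A549 and H441.

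Junction, polarity and LIM-domain scaffolds had 0 calls among 17 tested (1 at an unadjusted limma p under 0.05). AMOTL2, the angiomotin known as a feedback target, had -0.36 in A549 and -0.11 in H441 (limma adjusted p = 0.40). AJUBA, a LIM protein that can restrain LATS, had -0.37 and -0.20, and its relative WTIP -0.47 and 0.11. Casein kinases and ubiquitin ligases, which mark TAZ and other pathway proteins for degradation, had 0 calls among 11 (1 at an unadjusted p under 0.05). BTRC, the F-box protein that recognises phosphorylated TAZ, had -0.29 and -0.28, the ligase NEDD4 0.49 and -0.34, and NEDD4L -0.17 and -0.19.

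Among the 7 effectors, WWTR1 was the sole call (-2.27 ± 0.12, limma SE, 2 lines, limma adjusted p = 1.5e-11), and TEAD1 and VGLL4 had adjusted p of 0.28 and 0.26. YAP1 had a mean difference of 0.15 ± 0.12 (adjusted p = 0.65). Over all 54 genes outside the set and the effectors, the median mean difference was -0.06, against 0.03 for the 9 members and 0.0095 for all genes.

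**Figure D5:**
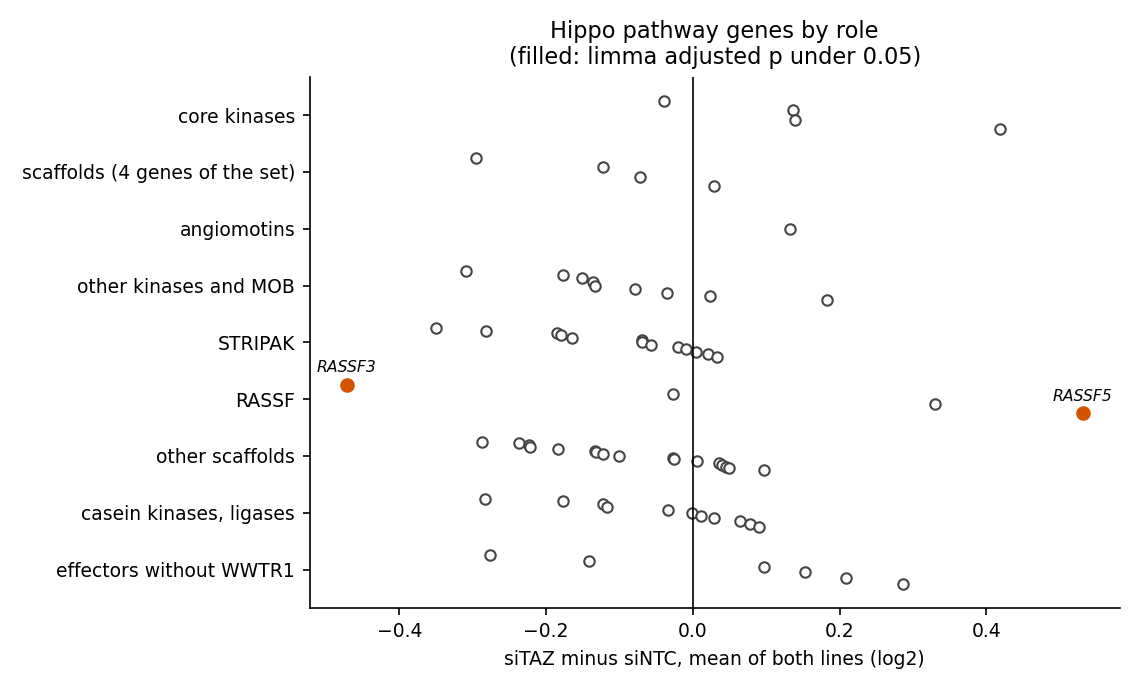
Mean siTAZ minus siNTC difference (log2) of each tested Hippo pathway gene, by role, with filled orange points for genes with a limma adjusted p under 0.05 and WWTR1 left out for scale. RASSF3 (-0.47) and RASSF5 (0.53) are the calls, and LATS1 (0.42) is the open point farthest to the right.

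For each member the gene with the closest pattern was found by the Euclidean distance between values on the 4 arrays, after centring each gene on its own mean. LATS1 was nearest to SLC39A1 (distance 0.046 on the log2 scale), with 9 genes within 0.1. STK3 was nearest to PREPL (0.063), which had 0.52 in A549 and -0.23 in H441, and 2 genes lay within 0.1. AMOTL1 was nearest to FAM171A1 (0.074, 2 genes within 0.1), and WWC1 to LRRC8D (0.051, 17 genes). SAV1 was nearest to TDRD9 (0.025, 26 genes within 0.1) and FRMD6 to BRCA1 (0.021, 91 genes). The patterns of LATS2, STK4, NF2 and AMOT were shared more widely, with 149 to 238 genes within 0.1, and their nearest genes were HEMK1, INTS7, REM2 and ADCK5. With 4 arrays such a match describes these samples only.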

How the data were processed

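RNA of A549 and H441 cells, 1 array per line and siRNA, was measured on an Affymetrix whole-transcript platform. The authors' deposited signals are in log2 units, which was read from their range of 4.20 to 14.83, and were summarised per probe set by RMA, as the submitters' processing notes name it. No source used here states the RMA version, the genome build or a joint normalization of the 4 arrays. RMA compresses differences of dim probe sets.

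Of 28869 probe sets, 19310 had a single symbol in the platform annotation, 1752 several and 7807 none. For genes with several probe sets the brightest was used, and each member had 1. Genes whose highest value reached the table median of 6.13 were fitted with limma 3.58.1 in R 4.3.3 (lmFit, eBayes, two-sided), with cell line and siRNA as terms and Benjamini-Hochberg adjustment over 12740 genes. The fit has 1 residual degree of freedom and a prior worth 22.3, so a limma SE comes mostly from all genes together and does not measure the gene's own spread between lines. The scripts were tested on simulated data. With 1 array per group, the number of arrays limits every value. No source used here says on which days the cultures were grown.

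Named genes were all members, WWTR1 and YAP1, per pathway list each called gene and the 3 with the largest mean absolute difference, and the nearest gene of each member. Values of TEAD1 and VGLL4 follow from the same rule. The members and lists were chosen with earlier results of these data known. STK3 has no promoter window in the table used. Alternatives were 3 scalings, 2 filters, the mean of probe sets, fits without the line or the siRNA, and 2 variance priors.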

Additional observations from a re-analysis of the deposited data

Results flagged for a closer look

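For 2 kinase genes the A549 difference after siTAZ was above 0 and the H441 difference below 0. STK3 had 0.53 in A549 and -0.25 in H441, a gap of 0.78 between the lines, and these signs held under all 3 other scalings. STK4 had 0.08 and -0.16, a gap of 0.24. Neither gap was tested, because 1 array per group leaves no replicate, and the cause was not tested.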

How the results depend on the processing

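The siTAZ fit called 315 genes, and 440 after median centring, 138 after quantile normalization, 20 after cyclic loess, 92 without the filter on dim genes, 594 with an intensity trend in the prior and 0 (limma, 11 at an unadjusted p under 0.05) without the cell line. The split was 151 higher and 164 lower, or 136 and 304 after median centring. LATS1 was the 1 member called of 7 tested under the stricter filter, against 4.17% of all genes (300 of 7198). It was also the 1 called of 9 with the trend, against 4.66% of all genes. The line comparison called 9158 genes and 5659 under the stricter filter, which tests fewer genes. Its split was 2425 higher and 6733 lower in A549, or 4014 and 4196 after quantile normalization and 4007 and 4042 after cyclic loess. Of the 9 tested members, 8 were called in the main fit, against 71.9% of all genes. After quantile normalization 4 were called (STK3, SAV1, AMOTL1, FRMD6), against 64.4% of all genes. After cyclic loess it was 3 (SAV1, AMOTL1, FRMD6), against 63.2%. AMOTL1 passed the filter only through A549, so its calls are no support. Members past 1.2-fold numbered 1 in A549 under the stricter filter, which dropped LATS1 and STK3 there, and in H441 3 after median centring and 2 after cyclic loess. All genes past 1.2-fold numbered 1150 in A549 under the stricter filter, against 2246 in the main setting. In H441 they numbered 2780 after median centring and 2314 after cyclic loess, against 2424 in the main setting. In the main setting these were 19.7% of all genes in A549 and 20.4% in H441. Shares under the other settings are not given, and the stricter filter keeps fewer genes. The member counts under those settings therefore cannot be read against a share. Signs turned for NF2 after siTAZ (-0.018, median centring) and for WWC1 between lines (0.16 and 0.15, quantile and cyclic loess). The cause of the scaling differences was not tested. The siTAZ fit pairs the arrays by cell line (2 pairs), and the labels carry no replicate numbers for another pairing. AMOT and the H441 signal of AMOTL1 are too dim for a change to be read.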

Other observations

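Outside the set of 10, many pathway genes also had lower signals in A549 than in H441: of 54 tested, 36 were called lower and 8 higher (limma adjusted p under 0.05), against 52.8% and 19.0% of all genes, and after quantile normalization 26 and 17, against 32.9% and 31.5% of all genes. AJUBA, the LIM protein gene, measured 8.27 and 7.90 in A549 and 10.57 and 10.37 in H441 (A549 minus H441 -2.38, limma adjusted p = 7.3e-15, and -1.99 after quantile normalization). MAP4K4 had -1.99 and AMOTL2 -1.25, which were -1.59 and -0.93 after quantile normalization. RASSF2 went the other way, with 7.53 and 8.15 in A549 and 4.83 and 4.87 in H441, where it was below the table median. It passed the filter only through A549, so no fold or p-value between the lines is given. Its place among the genes called higher, in the main fit and after quantile normalization, is no support.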
